A study of Rattus norvegicus with 12 samples.

Results

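Genes that stretch over 500 kb or more of the rat genome were followed in oligodendrocyte precursor cells (OPCs) exposed to inflammatory cytokines and to galinex. Members were chosen by genomic span, the highest exon end minus the lowest exon start in the gene annotation, and by a count of 5 or more on average in the 12 libraries. Of 30562 annotated genes, 221 spanned at least 500 kb, and 50 of these had a mean count under 5. One more, Plcb1, was left out by name, and Dgki, also left out by name, lay below the span threshold. The remaining 170 members stood among 13348 genes that were tested, of which 13177 were shorter than 500 kb.

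Very long genes consist almost wholly of introns, so that RNA polymerase has to travel far for every finished transcript, and their output depends on elongation and splicing as well as on initiation. Many are active in the nervous system, where they encode adhesion molecules, ion channels, transmitter receptors and the scaffolds that hold them in place. Oligodendrocyte precursors share a part of this repertoire with neurons, since they migrate, contact axons and receive synaptic input.

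RNA was sequenced from 12 cultures of primary rat OPCs, with 3 replicates in each of 4 groups. CTL cultures received neither agent, and CTK-2 cultures received 2 ng/mL of each of IL-1β, TNF-α and IFN-γ. GAL cultures received 10 nM galinex, an agonist of the receptor GPR17, and CTK2+GAL cultures received the cytokines and, 6 h later, 10 nM galinex. RNA was collected 24 h after galinex. All cultures had been moved to differentiating medium, and by the protocol DMSO stood in where galinex was not given. The cells were shaken off mixed glial cultures made from the cortices of newborn wild-type Sprague-Dawley rats of both sexes. The sources do not say whether the replicates came from separate preparations, and p-values measure the spread between these libraries only.

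The libraries held 5836987, 5207182 and 6169733 counts in CTL, 2600797, 6064182 and 5908813 in GAL, 4718825, 5475929 and 5329374 in CTK-2, and 5080780, 5562951 and 8978185 in CTK2+GAL. Levels are given as CPM, counts scaled by the normalized library size, and comparisons between genes as CPM per kb of exon. Changes are log2 fold changes with a standard error (SE) derived from the test. A gene was called where edgeR's quasi-likelihood test gave a p of 0.05 or less, adjusted over all tested genes by Benjamini-Hochberg, and the log2 fold change was 0.59 or more in size. The values of the members cannot tell fewer cells of a type apart from less RNA per cell.

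Gene symbols were available only for genes in the study's own table of genes changed by the cytokines, so markers could be checked in part. Of 10 markers of OPCs and oligodendrocytes, 3 had a symbol. Pdgfra, the PDGF receptor of OPCs, was at 442, 388 and 416 CPM in CTL and at 735, 663 and 706 CPM in CTK-2. Of 6 microglial markers, 3 had a symbol, and their summed level was 1.89, 3.58 and 7.62 CPM in CTL and 19.2, 14.4 and 14.5 CPM in CTK-2, the most abundant being P2ry12. It was 2.72, 2.51 and 7.22 CPM in GAL and 14.0, 16.2 and 14.7 CPM in CTK2+GAL, and Ptprc had 0 counts in CTL replicate 2 and in GAL replicates 1 and 2. The protocol removed microglia by a first shaking, and the study saw no Iba1-positive cells in the preparation it stained. The part of such cells in the results was not tested. Of 7 neuronal markers only Tubb3 had a symbol, at 81.7, 89.0 and 84.8 CPM in CTL and 156, 189 and 168 CPM in CTK-2. None of the 5 astrocyte markers and none of the 5 fibroblast and vessel markers on the lists used had one. Other markers of these cell types were not checked.

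In CTL and in GAL, 1 library stood apart. Over 11 of 15 interferon-induced genes that had a symbol, a list added after the data were seen, the summed level was 37.0, 46.5 and 389 CPM in CTL and 34.5, 40.5 and 345 CPM in GAL, replicate 3 being the high one in both. The same sum lay between 3056 and 3226 CPM in the 6 libraries with cytokines. Among the 37 members called higher in CTK-2, CTL replicate 3 was above both other CTL libraries in 27, and among the 115 not called in 51. It was below both in 12 of the 18 members called lower, and in 26 of those not called. GAL replicate 3 was above both other GAL libraries in 18 of the 37 and in 49 of the 115, and below both in 11 of the 18 and in 27 of the 115. Results are therefore also given without CTL replicate 3 and GAL replicate 3.

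The members were long mainly through their introns. They spanned between 501 and 2726 kb with a median of 704 kb, of which a median of 0.677% was exon, against 14.0% in shorter genes. The median member had 22.5 separate exon blocks and an exonless stretch of 219 kb. Its exons summed to 5.09 kb, more than the 3.05 kb of shorter genes, and its mean count of 129 was close to their 153. Per kb of exon the median level of the members was 4.99 CPM, against 9.48 CPM in shorter genes. Together they took 1.31% of all counts. The members lay on 21 chromosomes, with 19 among the 747 tested genes of chromosome 4, 18 among the 873 of chromosome 2 and 8 among the 469 of the X chromosome. Exons of 3 members overlapped an exon of another gene on the same strand, where read pairs were not counted.

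In CTK-2 versus CTL, 37 of the 170 members (21.8%) were called higher, where 11.5% of all tested genes were. Lower calls were made in 18 members (10.6%), against 5.84% of all tested genes. Shorter genes weighted to the same mean counts and exon lengths, in 16 strata, had 14.2% higher and 6.27% lower. The members had a median log2 fold change of 0.13, and all tested genes had 0.00. In the weighted shorter genes it was 0.05. The size of the changes differed in the same way, with a median absolute log2 fold change of 0.40 in the members, 0.26 in all tested genes and 0.28 in the weighted shorter genes. These are descriptions without a test of the list.

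The libraries of CTK-2 lay wholly above those of CTL in 69 members (40.6%), against 25.2% of all tested genes. They lay wholly below in 38 members (22.4%), against 23.8% of all tested genes, so the downward share was close to the background. By adjusted p alone, with no threshold on the fold change, 64 members (37.6%) were higher, against 20.1% of all tested genes, and 32 (18.8%) lower, against 19.8%. The larger share of lower calls among the members was thus seen only with the threshold on the fold change.

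Both shares of calls were larger in each longer class of genes. Among genes under 10 kb, 14.2% were called in either direction, and the share was 16.1% from 10 to 50 kb, 18.8% from 50 to 100 kb, 23.9% from 100 to 200 kb and 28.3% from 200 to 500 kb. At 500 kb or more it was 32.4%. These shares were not weighted for mean count or exon length, which also differed between the classes. The median mean count was 71.5 under 10 kb, 255 from 100 to 200 kb and 173 from 200 to 500 kb. Median exon lengths there were 1.76, 4.92 and 5.01 kb. The median log2 fold change was -0.03 under 10 kb, 0.07 from 100 to 200 kb and 0.13 from 200 to 500 kb, a value close to that of the members. The members themselves did not continue this order. Of the 95 that spanned under 750 kb, 19 were called higher and 9 lower, and of the 33 from 750 to 1000 kb, 11 and 2. Of the 42 that spanned 1000 kb or more, 7 were called higher and 7 lower, and their median log2 fold change was -0.01.

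**Figure D1:**
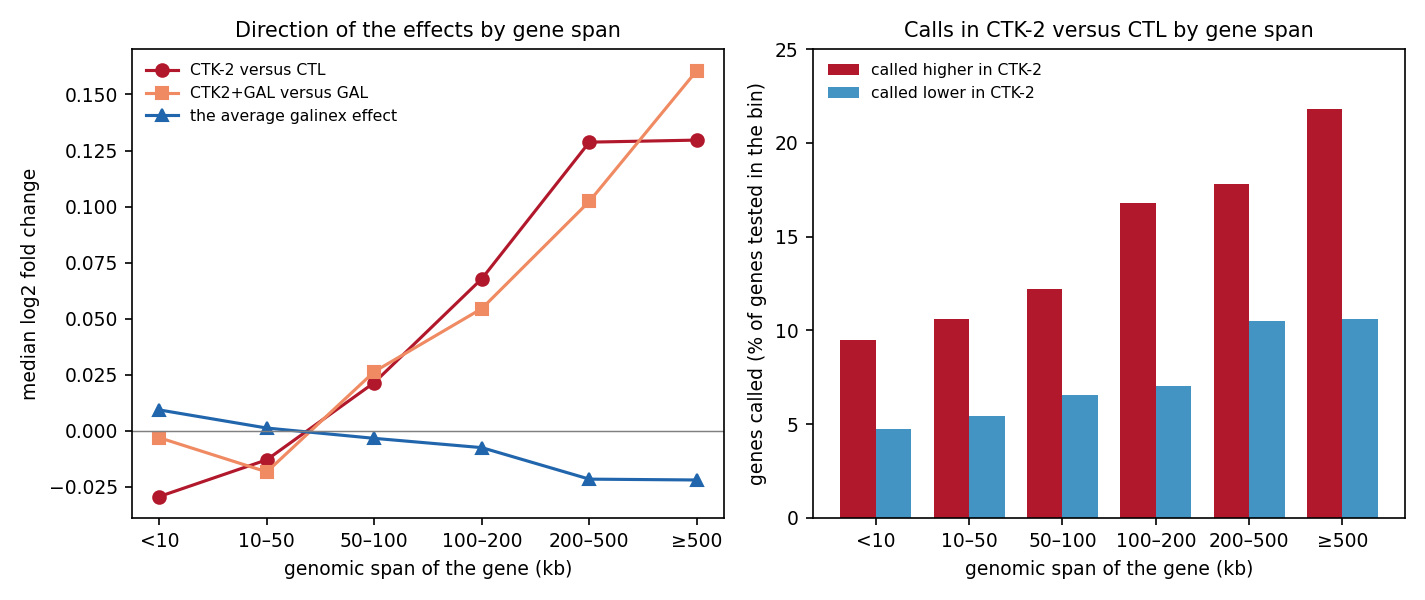
Left, the median log2 fold change of all tested genes in each class of genomic span (kb) for the cytokine effect without galinex, the cytokine effect with galinex and the average galinex effect. Right, the percentage of genes called higher or lower in CTK-2 versus CTL in each class; the highest class holds the 170 members, of which 21.8% were called higher and 10.6% lower.

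The shift of the members was seen in the single libraries. The median deviation of the members from their mean log2 level was -0.04, -0.13 and -0.01 in CTL and 0.10, 0.05 and 0.12 in CTK-2. It was -0.11, -0.09 and -0.04 in GAL and 0.13, 0.11 and 0.04 in CTK2+GAL. No library with cytokines fell below a library without them. CTL replicate 2, the lowest for the members, was also the highest for genes under 10 kb, with a deviation of 0.08. Whether a technical difference between libraries that depends on gene length has a part in these values was not tested. Without CTL replicate 2 the median of the members in CTK-2 versus CTL was 0.10, and without CTL replicate 3 and GAL replicate 3 it was 0.19.

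Levels of the members called higher and lower differed. Over all libraries, the median level per length was 3.09 CPM per kb of exon in those called higher and 14.2 in those called lower. In CTL, the median level was 7.33 CPM in the 37 members called higher and 88.1 CPM in the 18 called lower, and 21 of the 37 were below 10 CPM. The same order held over all tested genes, with a median of 6.16 CPM in CTL for genes called higher and 29.6 CPM for genes called lower. Median spans were alike, 717 and 701 kb.

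Symbols were known for 46 of the 170 members. All 46 come from the table of genes that the study called changed in these libraries, so their calls here are no independent evidence: 31 were called higher, 13 lower and 2 not. Of the 124 members without a symbol, 6 were called higher and 5 lower (8.87% in all), against 17.4% of all tested genes and 4.99% of the 11569 tested genes without a symbol. The role lists hold only genes of that table, so that nearly all of their members were called by construction, and each list stands beside 11.5% called higher, 5.84% called lower and a median log2 fold change of 0.00 over all tested genes. The members with a symbol are described by role below, and their changes with galinex on both sides, CTK2+GAL versus GAL, rest on other libraries than CTK-2 versus CTL.

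Of 10 members with roles in adhesion and guidance, 4 were called higher and 6 lower in CTK-2, and their median log2 fold change was -0.63. In CTK2+GAL versus GAL the counts were also 4 and 6. Receptor tyrosine phosphatases, which carry adhesion domains outside the cell, were changed in both directions. Ptprt, on chromosome 3 from 150194859 to 151288124 of the build mRatBN7.2, had 509, 471 and 449 CPM in CTL and 116, 120.1 and 129 CPM in CTK-2. All CTK-2 libraries were far below all CTL libraries, and the log2 fold change was -1.97 (SE 0.06, adjusted p = 1.4e-22), the largest decrease among the members. Ptprg, on chromosome 15 from 12871721 to 13554094, had 283, 254 and 279.7 CPM in CTL and 485, 506 and 541 CPM in CTK-2. It rose in all 3 libraries, with a log2 fold change of 0.91 (SE 0.06, adjusted p = 1.5e-14).

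Cadherins, the calcium-dependent adhesion proteins, were split as well. Cdh12, on chromosome 2 from 70475043 to 71700572, had 0, 1 and 2 counts in the CTL libraries and 37, 32 and 36 in CTK-2. Scaled to library size, this is a ratio of 38 with a 95% counting interval from 12.6 to 187. Cdh13, a cadherin anchored to the membrane by a lipid, was at 139.6 ± 20.3 CPM in CTL and fell to 60.1 ± 2.42 CPM with cytokines (SD, n = 3). The netrin receptor gene Dcc, which guides growing axons and migrating precursors, had 95.5, 88.2 and 78.8 CPM in CTL and 50.4, 43.6 and 45.9 CPM in CTK-2, without overlap. Its log2 fold change was -0.91 (SE 0.09, adjusted p = 1.5e-09).

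Lsamp encodes an adhesion protein of the immunoglobulin family and spanned 2162 kb, the most of all members with a symbol. It also had the highest level per length among them, 77.3 CPM per kb of exon. Its CTL libraries were at 376, 352 and 371 CPM and its CTK-2 libraries at 231, 237 and 249 CPM. The log2 fold change of -0.62 (SE 0.06, adjusted p = 5.1e-11) lay just past the threshold, and it was -0.58, no longer called, when libraries were scaled by total counts. Kirrel3 and the large cadherin Fat3 were also called lower, with log2 fold changes of -0.74 and -0.65. The call of Fat3 was lost without CTL replicate 1, at -0.55, and without CTK-2 replicate 2, at -0.58. Sdk1, an adhesion molecule known from retinal synapses, and Il1rapl1, an organizer of synapses related to the interleukin-1 receptor, were called higher, at 1.38 and 1.02.

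Channels, transporters and receptors numbered 11, of which 7 were called higher and 4 lower, and their median log2 fold change was 0.81. In CTK2+GAL versus GAL, 6 were called higher and 4 lower. Ryr2, the calcium release channel of the endoplasmic reticulum, lies on chromosome 17 from 58389925 to 58975142 in 108 exon blocks. Its CTL libraries held 33.0, 29.2 and 27.4 CPM and its CTK-2 libraries 8.16, 6.72 and 8.15 CPM. The groups were widely separated, and the log2 fold change was -1.96 (SE 0.16, adjusted p = 2.0e-12). Dpp10, an auxiliary subunit of potassium channels over 1673 kb, fell from 88.7 ± 3.32 to 53.5 ± 2.16 CPM (SD, n = 3). The lipid flippase gene Atp8a2 had a log2 fold change of -0.65, which was -0.58 and not called without CTK-2 replicate 1.

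Other genes of this list were called higher. Trpm3, a cation channel of the TRP family, was at 2.58, 2.38 and 2.76 CPM in CTL and at 10.9, 8.54 and 10.0 CPM in CTK-2. Its log2 fold change was 1.91 (SE 0.24, adjusted p = 4.4e-08). Cacna2d3, an auxiliary subunit of voltage-gated calcium channels, rose from 4.13 ± 1.52 to 14.6 ± 1.78 CPM (SD, n = 3). Kcnq5, a potassium channel, had 10.7, 11.5 and 16.4 CPM in CTL and 35.8, 25.6 and 29.6 CPM in CTK-2, a log2 fold change of 1.22. Sorcs3, a sorting receptor, had one of 0.97, the metabotropic glutamate receptor gene Grm5 one of 0.81, and Nkain3, whose protein binds the sodium pump, one of 2.29. Slc9a9, a sodium-proton exchanger of endosomes, was called in CTK-2 versus CTL at 0.74 and not in CTK2+GAL versus GAL, where it was at 0.55, a difference that the interaction did not call.

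Of 6 scaffold and cytoskeleton genes, 5 were called higher and 0 lower, and their median log2 fold change was 0.92. In CTK2+GAL versus GAL all 6 were called higher. Nav2, which encodes a protein that binds microtubules in growing cell processes, had 148, 134 and 181 CPM in CTL and 467, 444 and 486 CPM in CTK-2. The groups did not overlap, and the log2 fold change was 1.59 (SE 0.08, adjusted p = 1.7e-12). Magi1, a scaffold of cell junctions, rose from 75.1 ± 3.28 to 131 ± 3.12 CPM (SD, n = 3), and Lpp, a protein of focal adhesions, from 6.13 ± 1.53 to 21.0 ± 1.84 CPM. Anks1b, a scaffold of the postsynaptic density, was the member not called. It had 144, 152 and 195 CPM in CTL and 244, 242 and 251 CPM in CTK-2, a log2 fold change of 0.58. It was called without CTL replicate 3, at 0.73, and without CTK-2 replicate 2, at 0.60.

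Of 4 members in the signalling list, 3 were called higher and 0 lower, and their median log2 fold change was 2.12. The counts in CTK2+GAL versus GAL were also 3 and 0. They included Alk and Nrg1, which had the largest increases among the members after Cdh12. Alk, a receptor tyrosine kinase on chromosome 6 from 22880625 to 23598034, was at 1.03, 0.994 and 2.11 CPM in CTL and at 20.1, 16.2 and 13.5 CPM in CTK-2. Each CTK-2 library was several times above the highest CTL library, and the log2 fold change was 3.53 (SE 0.26, adjusted p = 2.0e-13). Nrg1, the neuregulin gene whose products are ligands of ERBB receptors and known for myelination, lies on chromosome 16 from 59250854 to 60296884. It had 1.72, 1.39 and 1.78 CPM in CTL and 14.6, 18.9 and 15.2 CPM in CTK-2, a log2 fold change of 3.29 (SE 0.25, adjusted p = 4.8e-13). Kalrn, a guanine nucleotide exchange factor with 67 exon blocks, rose from 52.6 ± 5.40 to 102 ± 5.49 CPM (SD, n = 3).

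Pde4b, a phosphodiesterase that degrades cyclic AMP, was not called. Its CTL libraries were at 155, 143 and 172 CPM and its CTK-2 libraries at 241, 227 and 238 CPM, without overlap. The log2 fold change of 0.59 was just short of the threshold when unrounded, and it was called at 0.66 without CTL replicate 3 and at 0.61 without CTK-2 replicate 2. Its exons overlap those of 1 other gene on the same strand, where pairs were not counted.

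**Figure D2:**
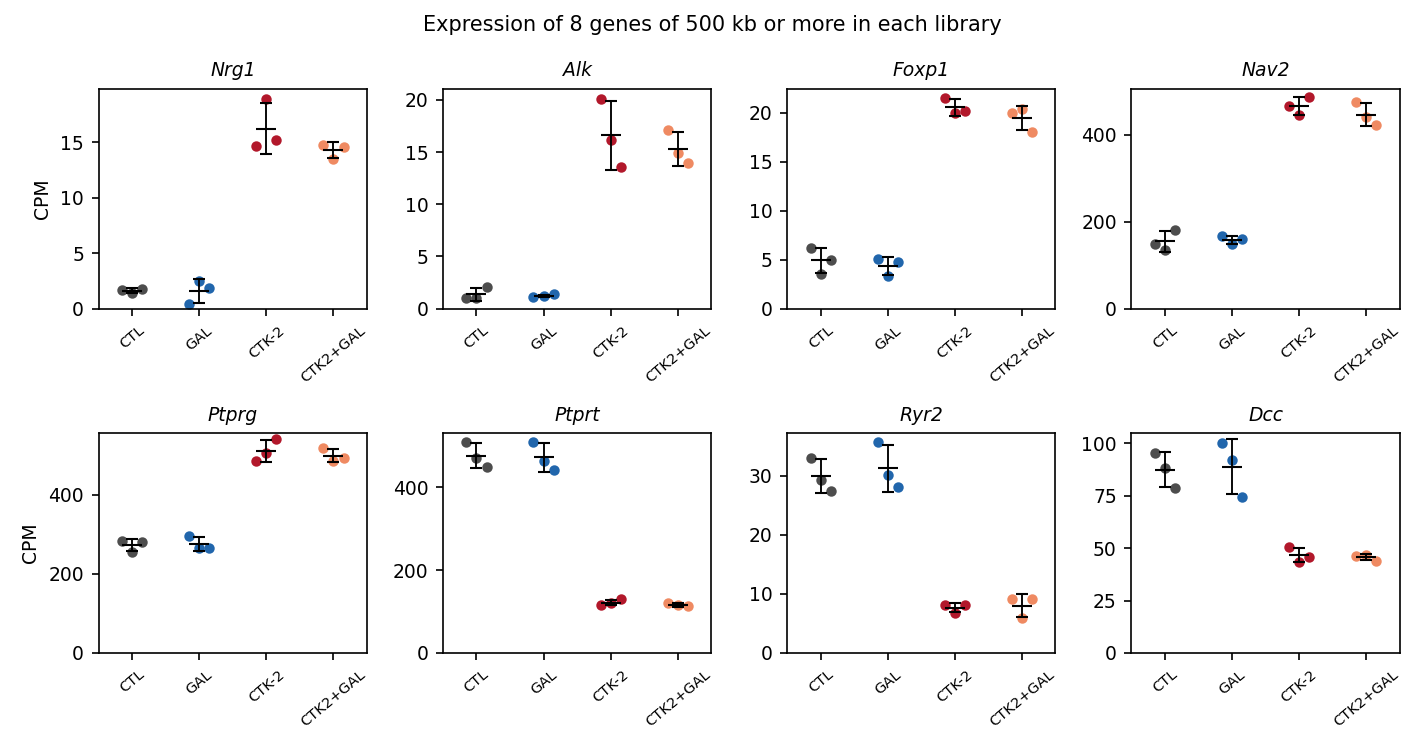
Levels in CPM of 8 members in each of the 12 libraries by group, on axes that start at 0. Points are libraries and bars the mean ± SD of 3. Nrg1, Alk, Foxp1, Nav2 and Ptprg were higher and Ptprt, Ryr2 and Dcc lower in every library with cytokines than in every library without.

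The list for transcription and RNA held 7 members, 5 called higher and 2 lower, and their median log2 fold change was 0.69. In CTK2+GAL versus GAL, 4 were called higher and 2 lower. Foxp1, a forkhead transcription factor, had 6.19, 3.58 and 5.03 CPM in CTL and 21.5, 19.99 and 20.2 CPM in CTK-2. All 3 CTK-2 libraries were close together and above CTL, and the log2 fold change was 2.04 (SE 0.18, adjusted p = 2.0e-11). Hdac9, a class II histone deacetylase, rose from 15.7 ± 1.58 to 31.6 ± 2.80 CPM (SD, n = 3). The splicing factor gene Rbfox1, which spanned 1534 kb, had 10.7, 7.75 and 10.7 CPM in CTL and 19.0, 13.1 and 17.6 CPM in CTK-2. Camta1, a calmodulin-binding transcription activator, and Ppargc1a, a coactivator of mitochondrial genes, had log2 fold changes of 0.69 and 0.59. Ppargc1a was not called in CTK2+GAL versus GAL, at 0.48, and its call in CTK-2 versus CTL was lost without CTL replicate 1 (0.53), CTL replicate 2 (0.51), CTK-2 replicate 2 (0.54) or CTK-2 replicate 3 (0.53). Cdk14, placed in this list although it encodes a cyclin-dependent kinase known from Wnt signalling, fell from 77.5 ± 4.22 to 35.3 ± 1.35 CPM (SD, n = 3). Dach2, a nuclear cofactor gene on the X chromosome, had a log2 fold change of -0.83 (SE 0.22).

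All 4 members of the metabolic list were called higher, and their median log2 fold change was 1.07. In CTK2+GAL versus GAL, 3 were called higher, and St6galnac3, at 0.58, was not. They were Dpyd, the first enzyme of pyrimidine breakdown, and the glycosyltransferases Galnt13, B3galt1 and St6galnac3. Galnt13, which starts mucin-type sugar chains, had 28.2, 27.2 and 32.4 CPM in CTL and 66.3, 70.3 and 63.2 CPM in CTK-2. Its log2 fold change was 1.18 (SE 0.10, adjusted p = 2.6e-12). Dpyd was at 7.74, 5.96 and 16.9 CPM in CTL and 31.2, 29.3 and 34.6 CPM in CTK-2, and replicate 3 was the high library in CTL, as it was in GAL with 14.1 CPM. Its log2 fold change was 1.60 (SE 0.30, adjusted p = 0.0020), and 2.20 without CTL replicate 3.

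In no list were 4 members with a symbol, of which 3 were called higher and 1 lower in CTK-2 versus CTL, and 2 and 1 in CTK2+GAL versus GAL. Cadps2, a factor for the release of dense-core vesicles, rose from 6.34 ± 1.25 to 25.4 ± 2.30 CPM (SD, n = 3), and Psd3, an exchange factor for ARF6, fell from 34.4 ± 2.17 to 20.6 ± 1.29 CPM. Etl4 was called higher from 13 counts in CTL. The gene matched to Bend5 was called higher at 1.09 and was at 0.42, not called, in CTK2+GAL versus GAL, but the RefSeq gene of that symbol is far shorter than the 1279 kb of the annotated row, and its name is uncertain.

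Without a symbol, ENSRNOG00000053753 rose on chromosome 8 from 10.6 ± 2.02 to 36.8 ± 0.938 CPM (SD, n = 3), and ENSRNOG00000062454 on the X chromosome from 3.28 ± 0.251 to 11.6 ± 2.26 CPM. The other direction was seen in ENSRNOG00000018500 on chromosome 17, which fell from 453 ± 21.4 to 231 ± 9.56 CPM (SD, n = 3), and in ENSRNOG00000063450 on chromosome 16, from 40.6 ± 1.68 to 20.5 ± 2.50 CPM.

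The cytokine effect was measured again in CTK2+GAL versus GAL, which shares no library with CTK-2 versus CTL. Higher calls were made in 34 of 170 members (20%), against 11.7% of all tested genes, and lower calls in 21 (12.4%), against 5.77%. The weighted shorter genes had 13.7% and 6.39%. Libraries did not overlap upwards in 72 members (42.4%), against 25.5% of all tested genes, and downwards in 38 (22.4%), against 24%. By adjusted p alone, 62 members (36.5%) were higher, against 20.5% of all tested genes, and 34 (20%) lower, against 19.9%. The members had a median log2 fold change of 0.16, all tested genes 0.01 and the weighted shorter genes 0.04.

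Of the 55 members called in CTK-2 versus CTL, 47 (85.5%) were called in the same direction in CTK2+GAL versus GAL, as were 47 of the 55 called there. Over all tested genes, 1849 were called in the same direction in both, 79.8% of the calls of one comparison and 79.5% of the other. No member was called in opposite directions. Some of the members with the largest changes were alike in both comparisons. In CTK2+GAL versus GAL, Ptprt had a log2 fold change of -2.02, Ryr2 one of -1.91, Alk one of 3.58 and Nrg1 one of 2.92. Across the 170 members, which are not independent replicates, Pearson's r of the log2 fold changes was 0.95, and it was 0.94 across all tested genes.

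**Figure D3:**
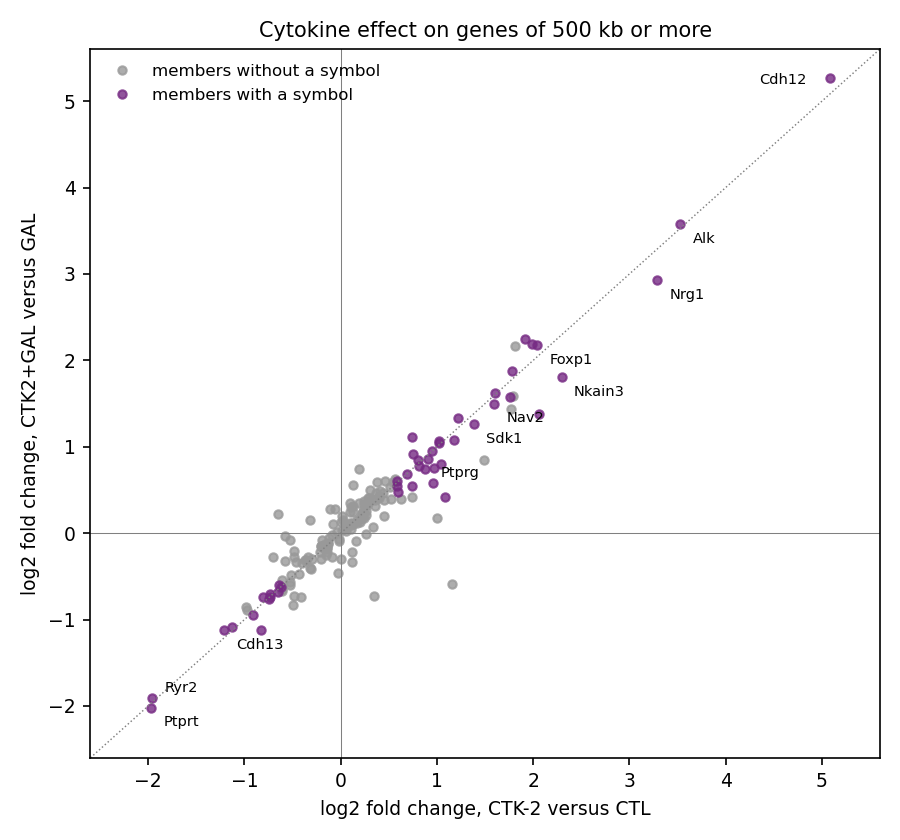
Log2 fold change of each of the 170 members in CTK-2 versus CTL on the x axis and in CTK2+GAL versus GAL on the y axis, with the line of equal values dotted. Each point is 1 gene; Cdh12, at the upper right, rests on 3 counts in CTL and its fitted value depends on the prior count, while Ptprt and Ryr2 lie near -2 on both axes.

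Galinex was compared without cytokines, with them, and averaged over both. edgeR called 0 members in the average galinex effect, GAL versus CTL, CTK2+GAL versus CTK-2 and the interaction, where 0% of all tested genes were called in each. DESeq2 called 0 members in these comparisons as well. At an unadjusted p under 0.05 there were 5 members (2.94%) in the average effect, against 6.57% of all tested genes, and 4 with DESeq2. There were 8 members in GAL versus CTL, against a background of 4.43%, and 2 in CTK2+GAL versus CTK-2, against 4.14%. DESeq2 gave 2 and 0 here. The interaction had 3 members, against 2.52% of all tested genes, and 1 with DESeq2. The lowest adjusted p of any member in the average effect was 0.70.

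The galinex values of the members were small in both directions. The median log2 fold change in the average effect was -0.02, that of all tested genes 0.00 and that of the weighted shorter genes -0.01. The median absolute value was 0.066 in the members and 0.062 in the weighted shorter genes. Of the 170 members 65 (38.2%) were above 0, where 50.1% of all tested genes and 44.9% of the weighted shorter genes were. Genes from 200 to 500 kb were close to the members, with 40.2% above 0 and a median of -0.02. With 1 library left out at a time, the median stayed between -0.0434 and -0.0028. In GAL versus CTL and in CTK2+GAL versus CTK-2, which share no library, 102 members (60.0%) had the same sign, against 56.1% of all tested genes.

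Single members are given as examples, Hdac9 and Sorcs3 for their small p-values in galinex comparisons and Ptprt for its large cytokine effect. Hdac9 was at 17.0, 16.1 and 13.9 CPM in CTL and 13.2, 14.4 and 13.6 CPM in GAL, and at 28.9, 31.6 and 34.5 CPM in CTK-2 and 31.3, 28.4 and 26.5 CPM in CTK2+GAL, so that the groups with and without galinex overlapped both times. Sorcs3 had 92.0, 88.7 and 89.9 CPM in CTK-2 and 88.5, 78.8 and 76.0 CPM in CTK2+GAL. These groups did not overlap, but the difference did not pass the adjustment. Ptprt held 511, 464 and 442 CPM in GAL, which overlapped its libraries in CTL.

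The 3 tested genes just below the span threshold, Slc24a3 and 2 without a symbol, spanned 499.6, 498 and 487 kb, and their log2 fold changes in CTK-2 versus CTL were 1.27, -0.16 and 0.08. The 3 members just above it, all without a symbol, spanned 501, 502 and 502 kb, and their log2 fold changes were -0.49, -0.04 and 0.24.

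Promoters of the named members were searched for short motifs of factors that act downstream of such cytokines, since many members rose together. RefSeq (GRCr8) gave 300 bases around the start for 25 of the 31 members called higher with a symbol. TTCNNNGAA, a pattern of STAT sites, was found in 3 of the 25 (12%) and in 8.87% of all 33469 promoters. GGG and TTCC with 3 bases between them, a pattern of NF-κB sites, were found in 1 (4.0%), against 5.37%. GAAA and GAAA with 2 bases between them, a pattern of interferon response elements, were found in 3 (12%), against 3.92%. Both strands were searched, matches did not have to avoid one another, and a match is a description of letters only. In the 8 promoters of members called lower, none of these patterns was found. The 3 stretches with the interferon pattern, the one most above its share in all promoters, are shown 5′ to 3′ along the gene, with the match in capitals; it reads GAAA on the opposite strand. They lie at chr4:53274983-53275012 on the minus strand, chr1:150733648-150733677 on the plus strand and chr10:8999513-8999542 on the minus strand of GRCr8.
Cadps2: cccgggccacTTTCCCTTTCgttctgcggc
Grm5: ataactacgtTTTCTTTTTCtgcttcctag
Rbfox1: acaaatgtctTTTCTTTTTCcctgattccc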

How the data were processed

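The deposited count values are read pairs per gene, neither normalized nor filtered. Per the file headers they were made by the authors with featureCounts 2.0.0 on Ensembl exons (mRatBN7.2, release 112), counting reversely stranded pairs with both ends mapped and leaving out chimeric pairs and marked duplicates. Pairs that overlapped several genes were not counted. The study names FastQC and STAR for the earlier steps.

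Genes that averaged 5 or more counts were normalized by TMM and fitted in R 4.3.3 with edgeR 4.0.16 (robust quasi-likelihood, 1 mean for each of the 4 groups, all 12 libraries). The SE is the size of the log2 fold change over the square root of the F statistic, since edgeR reports none. The average galinex effect is the mean of GAL and CTK2+GAL minus the mean of CTL and CTK-2. Shorter genes were weighted by the number of members in each of 16 strata, 4 classes of mean count crossed with 4 of exon length. Intervals and floors cover counting error only.

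The files pair no symbols with the Ensembl identifiers. Symbols came from a numeric match of mean and log2 fold change of the study's supplementary table of changed genes to the counts, which placed 1779 of 1786 entries. With the sign turned 17 entries matched, so a few names may be wrong. Of 1762 pairs with a chromosome in RefSeq (GRCr8), 99.9% shared the chromosome, and 5.87% did when shuffled. All 46 named members were on the same chromosome as in RefSeq, and 45 were within a factor of 2 of its gene length.

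The members and lists were chosen with earlier results of these data known. Named genes are members with a symbol that were among the 10 largest increases or decreases without overlap in CTK-2 versus CTL, the 5 smallest p-values of each galinex comparison, the 5 highest levels or spans, the 4 smallest p-values of each role list or the 3 next to the span threshold; the text describes a part of these. Members named outside this rule, and those without a symbol, were chosen after their values were seen. Deviations of same-numbered CTL and GAL libraries had correlations of 0.26, 0.26 and 0.60, but CTL 1 and GAL 2 had 0.23 and CTL 2 and GAL 1 0.15, so numbers 1 and 2 show no clear pairing. Same-numbered libraries of CTK-2 and CTK2+GAL had 0.06, 0.00 and -0.00. Pairs of CTL and GAL were an added alternative. The fits were tested on simulated data. Alternatives were DESeq2 1.42.0, its size factors, total counts, other filters, a replicate block, 2-group fits, no fold change threshold, other span and count limits, and each library left out in turn.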

Additional observations from a re-analysis of the deposited data

How the results depend on the processing

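The counts of members called in the 2 cytokine comparisons stayed within 1.5 times their value with DESeq2, its size factors in edgeR, total counts, other filters on low or invariable genes, fits of 2 groups only and members of a mean count of at least 50. With the replicate block, 38 members were called higher and 18 lower in CTK-2 versus CTL, and 34 and 21 in CTK2+GAL versus GAL, and the block changed no galinex call. Without a fold change threshold the counts were 64 higher and 32 lower in CTK-2 versus CTL, and 62 and 34 in CTK2+GAL versus GAL, with lower shares of 18.8% and 20% that were close to those of all tested genes, 19.8% and 19.9%. Of the 450 genes at 300 kb or more, 90 were higher and 48 lower in CTK-2 versus CTL, and 83 and 52 in CTK2+GAL versus GAL; of the 75 at 750 kb or more the counts were 18 and 9, and 17 and 9, beside 11.5% and 5.84% of all tested genes in CTK-2 versus CTL and 11.7% and 5.77% in CTK2+GAL versus GAL. With 1 library left out at a time, 35 to 42 members were called higher and 14 to 19 lower in CTK-2 versus CTL, and 31 to 37 and 18 to 22 in CTK2+GAL versus GAL. The galinex comparisons and the interaction gave 0 calls under every alternative run; fits of 2 groups give no value for the average galinex effect or the interaction.

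The median change of the members stayed positive in both cytokine comparisons and negative in the average galinex effect under every alternative run. With 1 library left out at a time it lay between 0.10 and 0.20 in CTK-2 versus CTL and between 0.14 and 0.21 in CTK2+GAL versus GAL. It was highest in CTK-2 versus CTL without CTK-2 replicate 2, at 0.20, and lay over 1.5 times the value of 0.13 in that fit only. In the average galinex effect it lay between -0.04 and -0.0028, and the last value, without CTL replicate 3, is far nearer to 0 than the value of all libraries. Without CTL replicate 3 and GAL replicate 3, an alternative chosen after seeing the data, 42 members were called higher and 18 lower in CTK-2 versus CTL with a median of 0.19, and 37 and 18 in CTK2+GAL versus GAL with a median of 0.19. Pairing CTL and GAL libraries, also added later, gave 39 and 21 in CTK-2 versus CTL and 0 galinex calls. The causes of these shifts were not tested.

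Of the 46 members with a symbol, 40 kept their side of the threshold in CTK-2 versus CTL under each of 22 refits, and none changed direction. Lsamp lost its call with total counts (-0.58), Atp8a2 in 1, Fat3 in 2 and Ppargc1a in 6 refits, while Anks1b and Pde4b gained one in 6 and 4. Of the 11 called members without a symbol, 5 kept their call in all of them. In CTK-2 versus CTL, 32.5% of the 40 members with a mean count under 50 were called beside 23.8% of all tested genes in that class, 38.4% of the 86 members from 50 to under 500 beside 15%, and 20.5% of the 44 members at 500 or more beside 14.7%. In CTK2+GAL versus GAL these shares were 25% beside 23.7%, 39.5% beside 15%, and 25% beside 15.1%. At a mean count of 500 or more, the share of members called higher in CTK-2 versus CTL, 6.82%, was close to the 7.09% of all tested genes in that class. Other values of this class were not close. In CTK2+GAL versus GAL, 11.4% of the members were called higher, against 7.09%. By adjusted p alone, 47.7% were higher in CTK-2 versus CTL, against 21.3%. The median log2 fold change of these members in CTK-2 versus CTL was 0.12, against -0.09.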
